A study of Homo sapiens with 40 samples.

Results

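MALAT1, NEAT1, KCNQ1OT1, NORAD, OIP5-AS1, MEG3 and H19 are 7 long noncoding RNA (lncRNA) genes, followed here in single T47D cells, a luminal line derived from human breast cancer. They were taken by Ensembl identifier from the 60279 genes of each count table, of which 13830 were annotated as lncRNA genes. The genes were chosen by a measured value, the roughly 10-fold higher MALAT1 level in NEB cells, so that excess is described below and nothing is concluded from it.

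The study compared plate-based full-length single-cell RNA sequencing protocols on T47D cells at passage 10, sorted as EpCAM+/CD49f+ live singlets, and 3 protocols are covered here. G&T cells were lysed in RLT Plus buffer and their mRNA was separated from the DNA, Takara cells were processed with the SMART-Seq HT kit, and NEB cells with the NEBNext Single Cell/Low Input kit, which was given more PCR cycles than the others. All 3 prime reverse transcription from poly(A) with oligo(dT), and each well received the same dilution of synthetic ERCC spike-in RNA. Of 40 deposited wells, 13 G&T, 13 Takara and 14 NEB, the study's 4 quality thresholds kept 33 cells, 11 per protocol. The wells left out were C2 and F1 of G&T, C2 and F1 of Takara, and B2, F1 and F2 of NEB.

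The labels give 1 passage for all cells and nothing in the sources says that the cells of a protocol came from separate cultures. Each protocol had 1 sequencing run, so its cells were not taken as replicates of the protocol, and protocol and run cannot be told apart. No test was therefore made between protocols. Levels are given as reads pooled over the 11 cells in CPM, reads per 1000000 reads on genes, with an exact 95% Poisson interval that covers counting error only, and as the lowest, median and highest cell. The count data hold no molecular identifiers, so PCR copies are counted as reads.

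The kept cells had 658154 to 1166633 reads on genes in G&T, 624772 to 963816 in NEB and 818512 to 1287911 in Takara. On average 11348 genes were detected for G&T, 5277 for NEB and 11178 for Takara, and ERCC reads made up 1.86%, 11.7% and 0.968% of the library. All 8 luminal epithelial markers used for the check had reads in each protocol, and their summed level per cell was 3931 to 15639 CPM for G&T, 1748 to 6731 for NEB and 9989 to 26747 for Takara. Of the immune markers PTPRC, CD3E, CD14 and LYZ, 1 of 4 had reads in G&T and none had in Takara or NEB, and of the endothelial markers PECAM1, VWF and CDH5, 2 of 3 had reads in G&T and none in the others. Summed over a list, the immune markers reached at most 2.48 CPM in a cell, the endothelial markers 25.5 CPM and the 4 fibroblast markers 50.04 CPM.

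The 7 RNAs act in different compartments. MALAT1 is a nuclear RNA that concentrates in nuclear speckles, where splicing factors are stored, and NEAT1 is the scaffold of paraspeckles, nuclear bodies built from RNA-binding proteins. NORAD and OIP5-AS1 are largely cytoplasmic, the first a decoy for Pumilio proteins and the second a binding partner of microRNA miR-7 and of the RNA-binding protein HuR. KCNQ1OT1, MEG3 and H19 come from imprinted loci and are made from 1 parental allele.

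MALAT1 (ENSG00000251562) is a single-exon gene of 10434 bases at chr11:65497640-65508073 on the plus strand of GRCh38. Its mature RNA has no poly(A) tail added in the usual way: RNase P cuts the primary transcript, a small tRNA-like RNA is released, and the long RNA ends in a genome-encoded run of A that folds back on upstream U-rich stretches. The stretch around that cut, chr11:65506018-65506173, is shown because oligo(dT) protocols depend on runs of A. Capitals mark the 13-base run of A, at bases 8459 to 8471 of the annotated transcript, and the annotated small RNA gene of 57 bases (ENSG00000274072, chr11:65506117-65506173) begins 6 bases after it.

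MALAT1, chr11:65506018-65506173 plus strand: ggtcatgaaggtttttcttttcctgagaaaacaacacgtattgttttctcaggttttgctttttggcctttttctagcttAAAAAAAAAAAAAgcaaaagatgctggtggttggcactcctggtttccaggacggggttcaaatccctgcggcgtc

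MALAT1 was the most abundant lncRNA in all 3 protocols. Its pooled level was 2584 CPM for G&T (2552 to 2616), 25666 CPM for NEB (25555 to 25778) and 2522 CPM for Takara (2494 to 2551). Among all genes it ranked 27th for G&T, 26th for Takara and 3rd for NEB.

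In G&T the cells ran from 1326 CPM through a median of 2808 to 3514, in Takara from 665 through 2782 to 5155, and in NEB from 7265 through 21342 to 44265. Every NEB cell lay above every G&T and every Takara cell, while the G&T and Takara cells overlapped throughout most of their range. Of the genes with at least 10 CPM in 1 of the protocols compared, 1.67% had every NEB cell above every G&T cell and 2.43% had every NEB cell above every Takara cell. For no other member did the cells of a pair of protocols separate fully. Genes with every cell lower made up 5.15% for NEB against G&T and 12.1% for NEB against Takara, and between G&T and Takara 1.06% had every G&T cell higher and 2.04% every G&T cell lower. The mean over cells was 2606 ± 741 CPM for G&T (SD, n = 11), 24999 ± 13316 for NEB and 2504 ± 1435 for Takara, so that relative spread was lowest in G&T, with a coefficient of variation of 28.4%, against 57.3% in Takara and 53.3% in NEB.

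The pooled NEB level was 9.93-fold the G&T level (9.80 to 10.1) and 10.2-fold the Takara level (10.1 to 10.3), and G&T and Takara differed by a factor of 1.02 (1.01 to 1.04), less than the spread between cells of either. The gaps between the NEB mean and the others were larger than the larger SD between cells. These are the values by which the genes were chosen. Larger ratios existed: 187 of 9119 genes, 25 of them lncRNA genes, exceeded the MALAT1 ratio of NEB over G&T, and 269 of 8955 genes, 29 of them lncRNA genes, exceeded that of NEB over Takara.

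**Figure D1:**
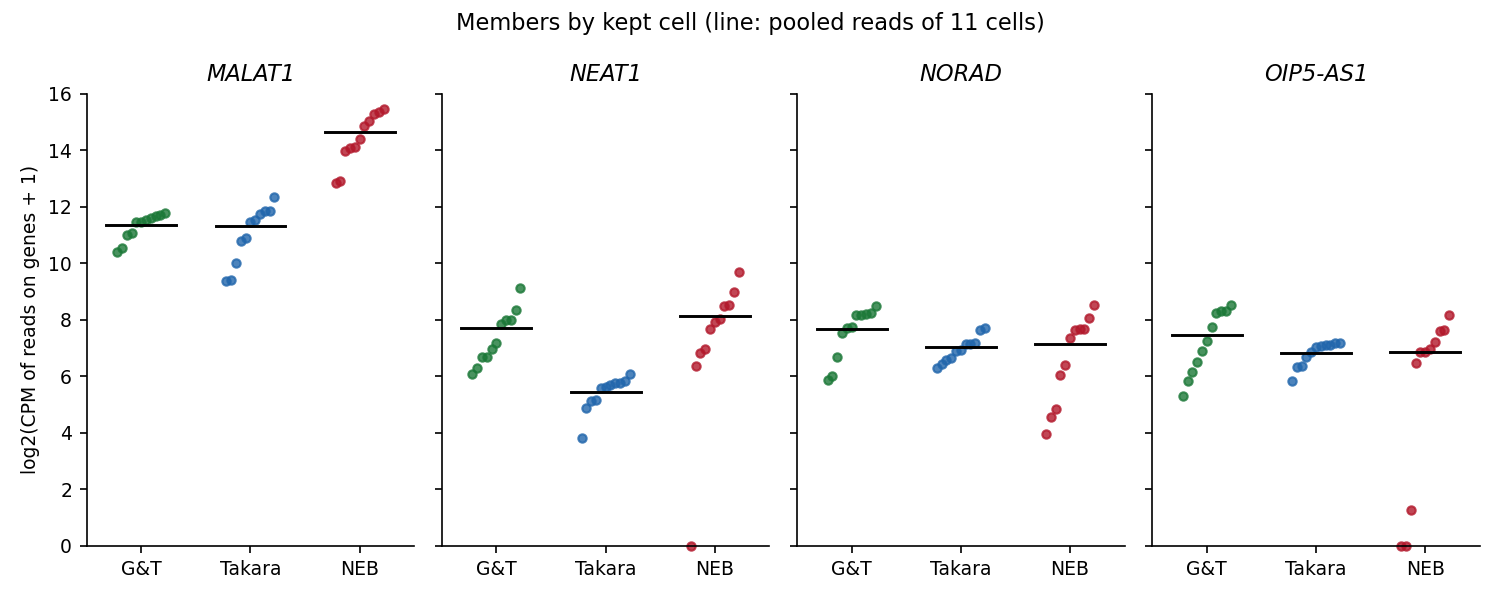
MALAT1, NEAT1, NORAD and OIP5-AS1 in each kept cell, as log2(CPM + 1) of reads on genes, by protocol, with 11 cells each (points, ordered by value) and a line at the pooled level of the protocol. The NEB points of MALAT1 lie above all others, Takara points of NEAT1 lie low and close together, and single NEB cells of NEAT1 and OIP5-AS1 sit at 0.

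The picture changed with the denominator. Per 1000 ERCC reads, pooled MALAT1 came to 134 reads for G&T, 196 for NEB and 260 for Takara, and single cells ran from 77.6 to 230 in G&T, from 35.4 to 657 in NEB and from 52.4 to 507 in Takara. On this scale the 3 protocols overlapped, and the NEB level was 1.47-fold that of G&T and 0.753-fold that of Takara. NEB libraries held the largest share of ERCC reads and the fewest detected genes. Their part in the CPM difference was not tested.

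**Figure D2:**
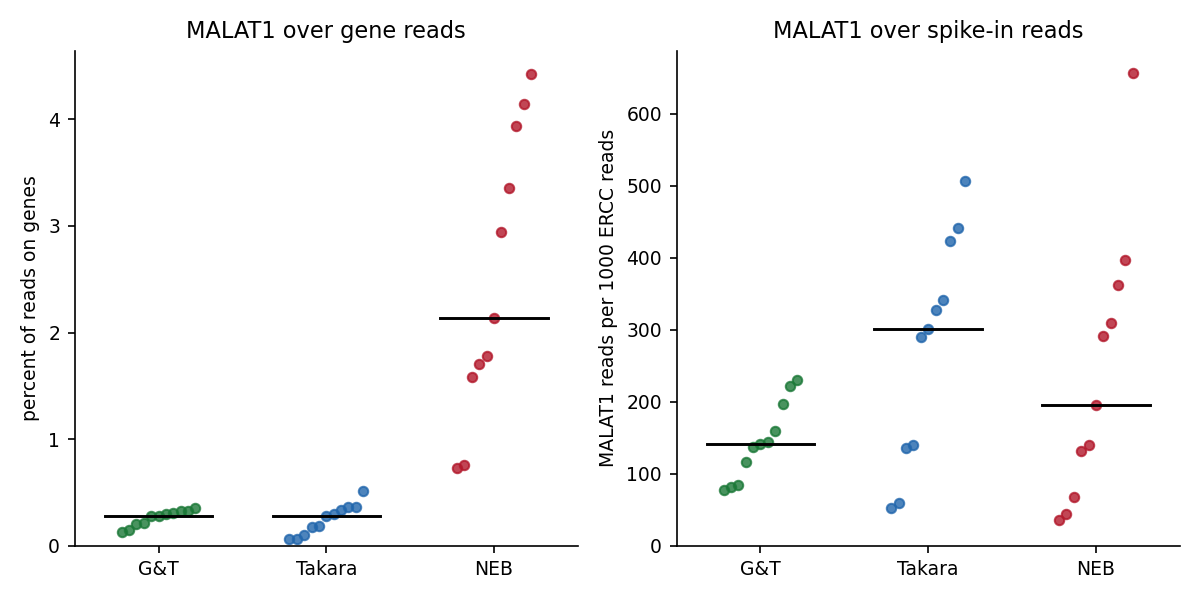
MALAT1 in the 11 kept cells of each protocol, as percent of reads on genes (left) and as reads per 1000 ERCC spike-in reads (right), with each cell a point and the line at the median cell. The NEB cells stand apart on the left, from 0.727% to 4.43%, and overlap both other protocols on the right.

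MALAT1 alone held 19.98% of all reads on lncRNA genes for G&T, 71.7% for NEB and 26.0% for Takara. Reads on lncRNA genes made up 1.28 ± 0.162% of reads on genes (mean ± SD over 11 cells) for G&T, 3.52 ± 1.23% for NEB and 0.972 ± 0.162% for Takara. Without MALAT1 the shares were 1.02 ± 0.161%, 1.02 ± 0.224% and 0.721 ± 0.136%. The NEB and G&T shares of the other lncRNA genes thus overlapped, and the excess of lncRNA reads in NEB over G&T cells was nearly all MALAT1.

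**Figure D3:**
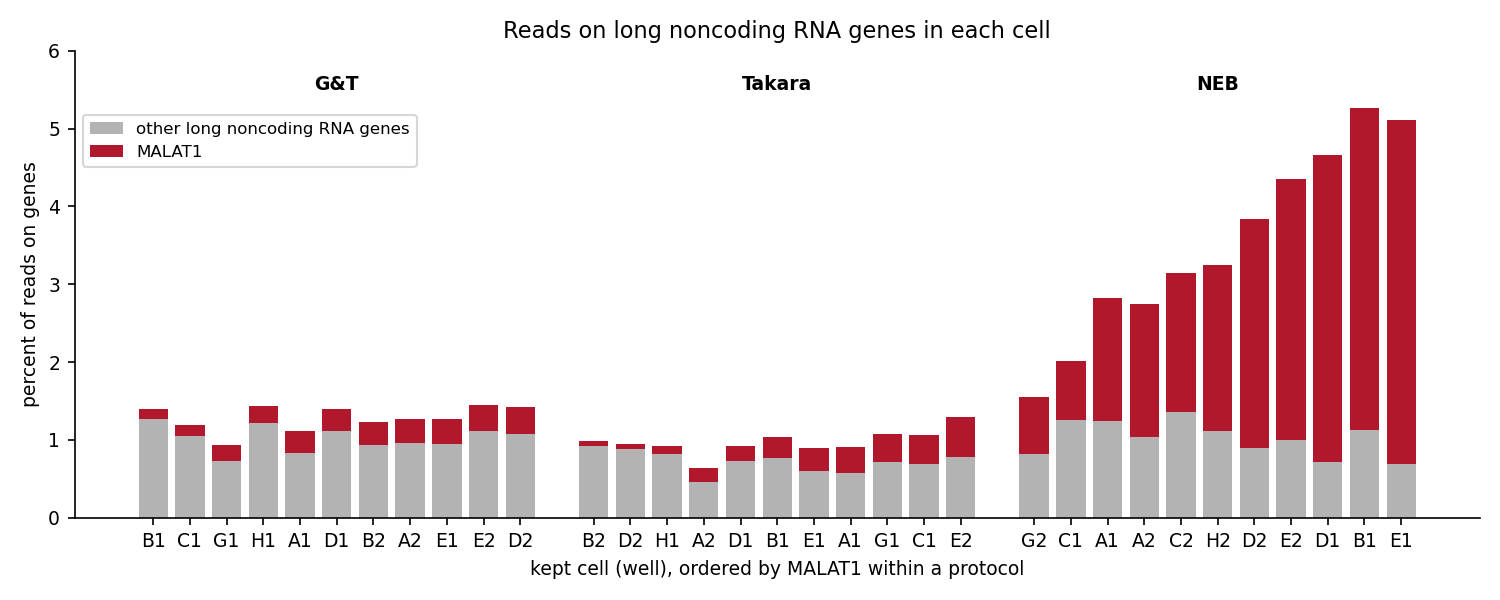
Percent of reads on genes that fell on MALAT1 (red) and on other lncRNA genes (grey) in each of the 33 kept cells, named by well and ordered by MALAT1 within a protocol. The grey part stays between 0.458% and 1.36% in all cells, and the red part grows to 4.43% in NEB cell E1.

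Among the NEB cells, MALAT1 was lower in cells with a higher ERCC share, with a Spearman rho of -0.56 over 11 cells of 1 run that also share the reads-on-genes denominator. In G&T and Takara that rho was 0.19 and -0.09. MALAT1 and NEAT1 had a rho of -0.15 in G&T cells, -0.18 in Takara cells and -0.45 in NEB cells. Over all 33 cells, the genes whose levels ranked most like MALAT1, out of 3604 with at least 50 CPM on average, were ARPC5, a subunit of the actin-nucleating Arp2/3 complex (rho 0.83), NDUFA12, a subunit of respiratory complex I (0.76), and the formin DAAM1 (0.76). All 3 had their highest pooled level in NEB, between 1001 and 1061 CPM against 61.5 to 289 CPM in the others, and within protocols their rho with MALAT1 ranged from 0.05 to 0.74, so the likeness over all cells holds the gap between protocols.

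Base composition moved with the NEB ratios. When the genes were put in 10 equal bins by the GC content of their longest transcript, the median log2 ratio of NEB over G&T went from 1.13 in the bin with least GC, 27.4% to 37.6%, to -3.38 in the bin with most, 59.9% to 73.9%. For NEB over Takara, which shares the NEB cells, it went from 1.22 to -3.77. MALAT1 has 42.0% GC and lay in a bin (41.7% to 43.6%, 908 genes) whose median was 0.33 for NEB over G&T and, in the corresponding bin, 0.40 for NEB over Takara. In these bins 26 and 25 genes, MALAT1 included, had a ratio at or above that of MALAT1. Length of the longest transcript moved with the ratios too, in 5 equal bins of genes. From the shortest to the longest bin the median log2 ratio went from -0.94 to 0.80 for NEB over Takara. It went from -0.48 to 0.76 for G&T over Takara and from -0.72 to -0.09 for NEB over G&T. MALAT1 and NEAT1 lay in the longest bin of each pair. The part of base composition or length in the ratios of MALAT1 and NEAT1 was not tested.

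**Figure D4:**
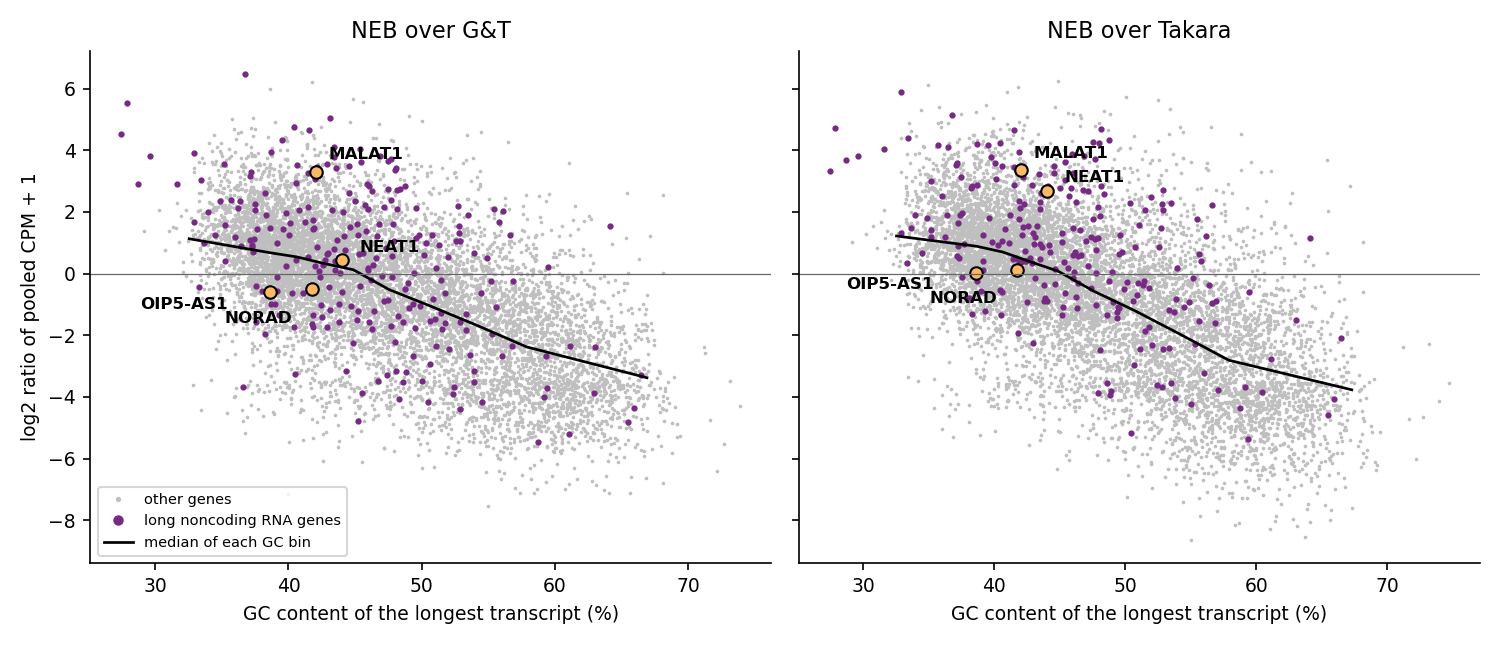
Log2 ratio of pooled CPM + 1 of NEB over G&T (left) and of NEB over Takara (right) against GC content of the longest transcript, for genes with at least 10 CPM in either protocol: other genes in grey, lncRNA genes in purple, 4 members in orange, and a black line through the median of each of 10 bins of genes by GC. The line falls from about 1 to below -3, MALAT1 lies well above it in both panels, NEAT1 only in the right one, and NORAD and OIP5-AS1 lie somewhat below it.

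NEAT1 (ENSG00000245532) lies on the same chromosome arm at chr11:65422774-65445540, plus strand, and spans 22767 bases in 1 exon. Its pooled level was 206 CPM for G&T (197 to 215), 280 CPM for NEB (269 to 292) and 42.5 CPM for Takara (38.9 to 46.4). G&T cells ran from 65.7 through 141 to 548 CPM, Takara cells from 12.9 through 47.5 to 67.1, and NEB cells from 0 through 238 to 826, with reads in 10 of 11 NEB cells. Takara was thus the low protocol for NEAT1: 10 G&T cells and 10 NEB cells lay above every Takara cell, and the exceptions were G&T cell A1 at 65.7 CPM and NEB cell B1 without a read.

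The ratio was 4.84-fold for G&T over Takara (4.39 to 5.36), 6.59-fold for NEB over Takara (5.98 to 7.28) and 1.36-fold for NEB over G&T (1.28 to 1.45). The means over cells were 201 ± 143 CPM (SD, n = 11) for G&T, 278 ± 232 for NEB and 43.9 ± 15.2 for Takara, so in CPM the gaps to Takara were larger, and the gap between NEB and G&T smaller, than the larger SD of each pair. On the log2 scale the mean difference over cells was 1.98 for G&T over Takara, above the larger SD of 0.94, but 1.83 for NEB over Takara, below the larger SD of 2.58 that NEB cells had with B1 at 0. Per ERCC read, NEB fell below both others, at 0.201-fold of G&T and 0.488-fold of Takara, and G&T stayed above Takara at 2.43-fold.

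**Figure D5:**
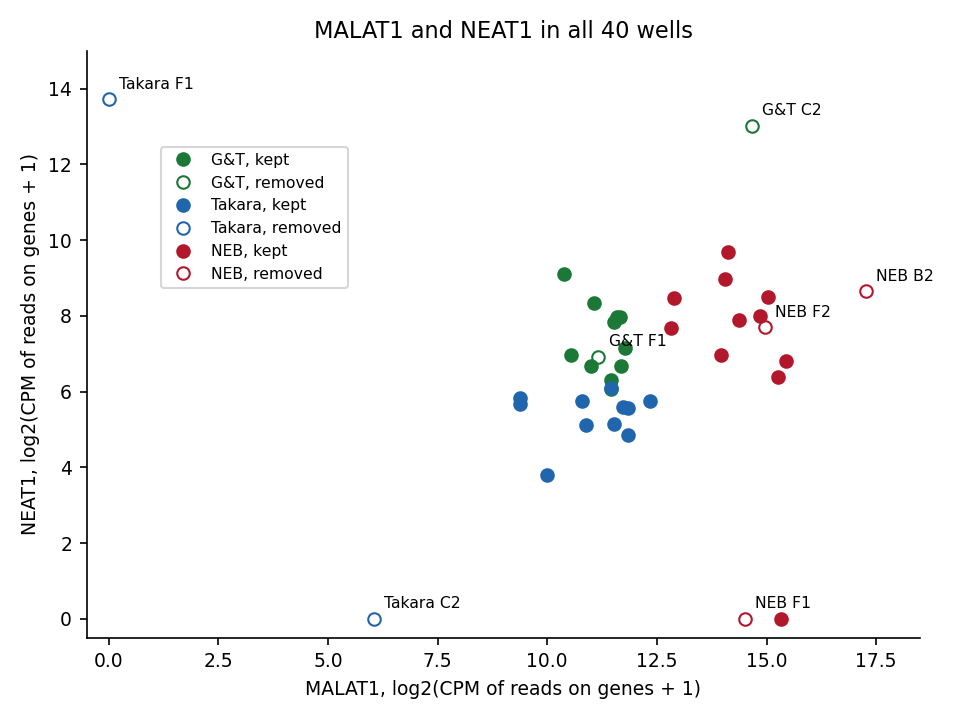
NEAT1 against MALAT1 in all 40 deposited wells, both as log2(CPM + 1) of reads on genes, with kept cells filled and removed wells open and named, coloured by protocol. Kept cells form 1 cloud per protocol, except NEB cell B1, which has no NEAT1 read and lies apart. Takara lies low on the NEAT1 axis and NEB high on the MALAT1 axis. On the MALAT1 axis, removed wells C2 of G&T and B2 of NEB lie above the kept cells of their protocol. Removed wells C2 and F1 of Takara lie below theirs.

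The removed wells enter none of these values. Reads that fell outside annotated genes also differed between the protocols, at 13.3% for G&T, 13.4% for NEB and 2.90% for Takara, low in the protocol where NEAT1 was low. Within protocols, the rho of NEAT1 with the share of these reads was 0.05 in G&T cells, 0.22 in Takara cells and 0.49 in NEB cells. Their relation to NEAT1 between protocols was not tested. The rho of NEAT1 with the number of reads on genes, which is also the denominator of its level, was -0.76 in Takara cells, 0.20 in G&T cells and 0.14 in NEB cells (n = 11 each). The genes most like NEAT1 over the 33 cells were IRF2BP2, a transcriptional corepressor (rho 0.80), BRWD1, a bromodomain protein (0.77), and LARP4B, an RNA-binding protein (0.76), and all 3 were lowest in Takara, at 24.4 to 67.6 CPM against 91.7 to 336 CPM elsewhere. Their rho with NEAT1 within protocols was -0.03 to 0.65.

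NORAD (ENSG00000260032), at chr20:36045618-36051018 on the minus strand, is a single exon of 5401 bases. It carries many copies of the Pumilio motif TGTANATA, searched on the transcript strand only. There were 15 copies, 2.78 per kilobase, whereas 36.1% of the 9566 annotated genes with at least 10 CPM in some protocol had at least 1 and 0.0209% had at least as many per kilobase. The first copies along the transcript are shown with 8 bases to each side, the motif in capitals.

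NORAD motif 1, chr20:36050185-36050208 minus strand: aaggcctgTGTATATAatatgaaa
NORAD motif 2, chr20:36049806-36049829 minus strand: cactactgTGTATATAgttgacaa
NORAD motif 3, chr20:36049705-36049728 minus strand: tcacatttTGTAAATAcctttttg

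NORAD was read in all 33 cells. The pooled level was 201 CPM for G&T (192 to 210), 141 CPM for NEB (132 to 149) and 128 CPM for Takara (122 to 135). G&T cells ran from 57.4 through 214 to 358 CPM, Takara cells from 76.8 through 120 to 207, and NEB cells from 14.5 through 161 to 362. The protocols overlapped, with the narrowest range in Takara and the widest in NEB, where the highest cell was 24.9 times the lowest. The ratios were 0.699-fold for NEB over G&T (0.649 to 0.753), 1.09-fold for NEB over Takara (1.01 to 1.18) and 1.57-fold for G&T over Takara (1.46 to 1.68), each with a gap between the means over cells below the larger SD between cells.

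Among G&T cells, NORAD ranked with the share of reads outside genes (rho 0.82, n = 11), with the number of genes detected (0.70) and with OIP5-AS1 (0.69). In Takara and NEB the rho of NORAD was 0.08 and 0.16 with the share of reads outside genes, -0.10 and -0.42 with the number of genes detected, and -0.19 and 0.06 with OIP5-AS1.

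OIP5-AS1 (ENSG00000247556) spans chr15:41283958-41322392 on the plus strand, with 16 merged exons and 22370 exon bases. Its longest transcript held 3 matches to the seed of miR-7, bases 2 to 8, and 28.9% of the genes compared held at least 1. The microRNA (RefSeq, GRCh38.p14) and the site with the longest further unbroken pairing, 14 bases outside the seed against 5 for the next site, are shown with the seed and its match in capitals.

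hsa-miR-7-5p: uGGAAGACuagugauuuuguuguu
OIP5-AS1 site, chr15:41300574-41300599 plus strand: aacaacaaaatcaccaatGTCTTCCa

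OIP5-AS1 had a pooled level of 174 CPM for G&T (165 to 182), 115 CPM for NEB (108 to 123) and 113 CPM for Takara (107 to 119). It was read in every G&T and Takara cell and in 9 of 11 NEB cells. G&T cells ran from 38.4 through 149 to 361 CPM, Takara cells from 55.6 through 129 to 143, and NEB cells from 0 through 116 to 283. The protocols overlapped, but cells of Takara differed least from each other, with a coefficient of variation of 26.5% against 65.6% in G&T and 79.0% in NEB. The ratios were 0.661-fold for NEB over G&T (0.609 to 0.718), 1.02-fold for NEB over Takara (0.935 to 1.11) and 1.54-fold for G&T over Takara (1.43 to 1.66). As for NORAD, each gap between the means over cells was below the larger SD.

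Per ERCC read both RNAs were lowest in NEB. NORAD there was 0.103-fold of G&T and 0.0810-fold of Takara, OIP5-AS1 was 0.0976-fold and 0.0754-fold, and the G&T levels were 0.786-fold and 0.773-fold of the Takara levels, so that the order of G&T and Takara turned round on this scale.

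Some exon bases of OIP5-AS1 are shared with neighbours, 759 with OIP5 on the other strand and 195 with NUSAP1 on the same strand. OIP5 stood at 32.3, 20.8 and 43.1 CPM and NUSAP1 at 330, 1516 and 411 CPM in G&T, NEB and Takara. Which strand setting the counts used is not stated, so reads in the shared bases cannot be assigned with certainty. The same holds for MALAT1, since the antisense gene TALAM1 covers 8121 of its exon bases and has no entry in the count tables.

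OIP5-AS1 and NORAD were not in the rule for genes of like pattern and were looked at after their values had been seen. For OIP5-AS1 the closest genes over 33 cells included PCNA, the sliding clamp of DNA replication (rho 0.72), and TMPO, a nuclear envelope protein (0.67). PCNA had a like level in all 3 protocols, 271, 264 and 248 CPM, and its rho with OIP5-AS1 was 0.80 for G&T, 0.83 for NEB and 0.65 for Takara. For NORAD the closest were GRINA (0.65), the RNA-editing enzyme ADAR (0.63) and GSE1 (0.62), with a rho of ADAR with NORAD of 0.81 for G&T, 0.75 for NEB and 0.08 for Takara.

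Read against all genes, the 4 expressed members are counted without the MALAT1 excess in NEB, which was the ground for choosing them. Of NEAT1, NORAD and OIP5-AS1, none was at least 2-fold higher or lower in NEB than in G&T. There, 23.0% of 9119 genes were higher and 39.6% were lower. Against Takara, NEAT1 alone of these was at least 2-fold higher in NEB and none was lower. There, 25.6% of 8955 genes were higher and 40.3% were lower. NEAT1 alone was at least 2-fold higher in G&T than in Takara, where 19% of 9060 genes were higher and 20.4% were lower. The 3 pairs share cells, so their counts are not independent.

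The order between genes was compared per kilobase of merged exons. MALAT1 stood highest, at 248 CPM per kilobase for G&T, 2460 for NEB and 242 for Takara, followed by NORAD at 37.2, 26.0 and 23.8. NEAT1 had 9.04, 12.3 and 1.87 CPM per kilobase and OIP5-AS1 had 7.76, 5.14 and 5.04. NEAT1 thus ranked above OIP5-AS1 in G&T and NEB and below it in Takara. With the longest transcript as length, OIP5-AS1 rose to 19.6, 12.9 and 12.7, above NEAT1 in all 3. Shorter transcripts were not used as length, so the order between genes holds for these lengths only.

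The longest run of A in the longest transcript was 13 bases in MALAT1, 22 in NEAT1, 10 in NORAD and 29 in OIP5-AS1. Of the genes compared, 17.2%, 3.04%, 27.7% and 0.617% had a run at least as long. The runs of NEAT1 and OIP5-AS1 are shown with 20 bases to each side.

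NEAT1, chr11:65440823-65440884 plus strand: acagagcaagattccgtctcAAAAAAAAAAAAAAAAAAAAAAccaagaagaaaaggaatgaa
OIP5-AS1, chr15:41301951-41302019 plus strand: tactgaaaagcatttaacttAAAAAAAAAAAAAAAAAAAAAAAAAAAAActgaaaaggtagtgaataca

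The 3 imprinted members were nearly silent in kept cells. KCNQ1OT1 (ENSG00000269821, chr11:2597308-2700003, minus strand), an antisense RNA that silences neighbouring genes in cis, had 35 reads in 4 G&T cells, 3.68 CPM pooled (2.57 to 5.12), and 1 read in 1 Takara cell. The G&T cells with reads were A2 at 6.56, C1 at 21.4, D1 at 10.5 and H1 at 2.07 CPM. No NEB cell had a read, which allows up to 0.376 CPM.

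MEG3 (ENSG00000214548, chr14:100779410-100861031, plus strand), a maternally expressed RNA, had 12 reads in G&T cell D1, 2 reads in Takara cell B1 and none in NEB. H19 (ENSG00000130600, chr11:1995166-2004552, minus strand), the host of miR-675, had 12 reads in Takara, from cells A1 at 6.79 CPM and E1 at 5.60 CPM, and none in G&T, which allows up to 0.316 CPM, or in NEB, which allows up to 0.376 CPM. H19 has 63.6% GC, the highest of the 7. At this depth the levels of these 3 genes did not allow a comparison between protocols.

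Of 9 genes that neighbour the imprinted members, 2 reached 10 CPM. PHLDA2, a placental growth restrainer next to KCNQ1OT1, had 94.1 CPM for G&T, 4.89 for NEB and 89.6 for Takara, and SLC22A18, a transporter gene beside it, had 16.4, 0 and 13.5 CPM. Both were at least 2-fold lower in NEB than in either other protocol. Of all genes tested, 39.6% were at least 2-fold lower in NEB than in G&T and 40.3% lower than in Takara. IGF2, next to H19, had at most 0.512 CPM, MEG9, near MEG3, at most 0.421 CPM, and KCNQ1, whose gene holds KCNQ1OT1, had no read.

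Lists of related genes were counted on the CPM scale. Per ERCC read, every NEB level falls by 1 common factor against each other protocol, so the counts below hold for CPM alone. The paraspeckle proteins were read in all 3 protocols. Of 12 paraspeckle proteins, 1 was at least 2-fold higher and 5 were lower in NEB than in G&T, 1 was higher and 4 were lower in NEB than in Takara, and 1 was higher and 2 were lower in G&T than in Takara, with median log2 ratios of -0.16, -0.23 and -0.54 against -0.38, -0.38 and -0.09 over all genes tested. Of all genes tested, as given above, 23.0% were higher and 39.6% lower in the first pair, 25.6% and 40.3% in the second, and 19% and 20.4% in the last. NONO, a core paraspeckle protein, had 204, 366 and 350 CPM in G&T, NEB and Takara, and its partner SFPQ had 96.2, 147 and 138 CPM. HNRNPK had 414, 160 and 871 CPM and HNRNPH3 had 130, 216 and 190 CPM. NONO, SFPQ and HNRNPH3 were thus lowest in G&T, whereas NEAT1 was lowest in Takara.

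Of 9 nuclear speckle proteins, 3 were at least 2-fold higher and 2 lower in NEB than in G&T, and 6 were higher and 2 lower in NEB than in Takara, with medians of 0.78 and 1.67. Over all genes tested these shares were 23.0% and 39.6%, and 25.6% and 40.3%, with medians of -0.38 and -0.38. Between G&T and Takara 4 were higher in G&T and none was lower, with a median of 0.96, where 19% of all genes were higher and 20.4% lower (median -0.09). The splicing factors SRSF3 and SRSF2 had 452, 666 and 463 CPM and 164, 468 and 147 CPM in G&T, NEB and Takara, the speckle scaffold SON had 457, 556 and 171 CPM, and RBM25 had 234, 491 and 119 CPM. All 4 were highest in NEB, but by far less than MALAT1. SRSF1, SRRM1 and PNN were highest in NEB too, whereas SRRM2 (236, 5.02 and 88.3 CPM) and U2AF2 (43.5, 0.502 and 11.2 CPM) were lowest there.

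The binding partners of the cytoplasmic members split. PUM2, a Pumilio protein, had 37.5, 150 and 17.6 CPM in G&T, NEB and Takara, and ELAVL1, which encodes HuR, had 69.3, 15.6 and 29.9 CPM. PUM2 was at least 2-fold higher in NEB than in both others, and ELAVL1 was at least 2-fold lower in NEB than in G&T and within 2-fold of Takara.

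Other lncRNA genes gave the surroundings of the members. Of the lncRNA genes with at least 10 CPM, 42.4% of 250 were at least 2-fold higher and 29.2% lower in NEB than in G&T, and 46.2% of 240 were higher and 20.4% lower in NEB than in Takara. Between G&T and Takara, 23.7% of 190 were higher in G&T and 10.5% were lower. Over all genes tested, the shares higher and lower were 23.0% and 39.6%, 25.6% and 40.3%, and 19% and 20.4% in these pairs. The median log2 ratio of the lncRNA genes was 0.52, 0.80 and 0.28 in these pairs, each above the median over all genes.

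In a list of 24 other well-described lncRNAs, 18 could be compared between NEB and G&T, of which 5 were at least 2-fold higher in NEB and 4 lower (median 0.22). Against Takara 6 of 16 were higher in NEB and 1 was lower (0.95), and between G&T and Takara 5 of 15 were higher in G&T and none was lower (0.70). Over all genes tested, 23.0% were higher and 39.6% lower in the first pair (median -0.38). In the second pair these were 25.6% and 40.3% (-0.38), and in the last 19% and 20.4% (-0.09). PSMA3-AS1, a gene named for lying antisense to PSMA3, had 43.4, 676 and 35.6 CPM in G&T, NEB and Takara, and GAS5, a snoRNA host gene, had 335, 226 and 169 CPM. TUG1 had 102, 191 and 44.6 CPM, and DANCR had 83.5, 85.4 and 150 CPM. As with NEAT1, TUG1 and GAS5 were lowest in Takara, and DANCR was highest there.

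After MALAT1, the most abundant lncRNA genes were SNHG5, a snoRNA host gene, and GAS5 in G&T, GAS5 and DANCR in Takara, and PSMA3-AS1 and DSCAM-AS1 in NEB. SNHG5 had 340, 34.5 and 88.1 CPM in G&T, NEB and Takara. The second lncRNA gene of each protocol thus stood at 340 CPM in G&T, 676 in NEB and 169 in Takara, well below MALAT1.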

How the data were processed

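Single T47D cells of 1 passage were compared over 3 protocols. Per the study's methods, the authors trimmed reads with Trim Galore, mapped with STAR against GRCh38, and deposited STAR's raw read counts per gene, merged into 1 table per protocol, without normalization, molecular identifiers or filters. The annotation release and the strand setting are not given in the sources used here. The tables hold 60279 genes, 92 spike-in RNAs and 4 groups of reads without a gene (unmapped, multi-mapping, outside genes and ambiguous), which were left out of totals. Of all reads of a kept cell, ambiguous reads averaged 8.79% for G&T, 5.68% for NEB and 10.6% for Takara. SMART-Seq3 cells were not analysed here.

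Cells were kept with at least 1000 genes, 600000 reads on genes and spike-ins, at most 30% mitochondrial and at most 25% ERCC reads. CPM were computed over reads on genes. Ratios used pooled reads with 1 CPM added before log2 (printed folds are of the pooled levels with no addition), and genes with at least 10 CPM in 1 of the 2 protocols were compared, called at 2-fold. Poisson intervals are exact at 95%, and 0 reads allow up to 3 over the pooled cells. Gene types, positions, lengths and GC content came from GENCODE release 44, which matched 56104 genes by identifier, and the longest transcript gave GC content, motifs and runs of A. The miR-7 sequence came from RefSeq. No test was made, because the cells of a protocol share 1 run and no source names separate cultures. No doublet caller was run, since wells were sorted as singlets.

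The members and lists were chosen with earlier results of these data known. Genes are named as the 7 members, up to 4 of each list by summed level, the 3 genes ranking most like MALAT1 and like NEAT1 (Spearman, log2 of CPM + 1), the 3 most abundant lncRNA genes per protocol and the 2 with the largest ratio per pair and direction among lncRNA genes with at least 10 CPM and reads in at least 6 kept cells in the higher protocol. Lists were other lncRNAs, breast lncRNAs, imprinted neighbours, paraspeckle and nuclear speckle proteins, partners of NORAD and OIP5-AS1, and RNAs without a poly(A) tail, and markers of luminal, immune, endothelial and fibroblast cells served as a check. Some genes that this rule names are not reported here. Pooled ratios were tested on simulated data. Alternatives covered pooling, the cells kept, the denominator including ERCC reads, TMM scaling (edgeR 4.0.16, R 4.3.3), the added CPM, the minimum level, the fold, thinning and gene length. Counting and figures used matplotlib 3.10.9, scipy 1.17.1, pandas 2.3.3 and numpy 2.4.6 under Python 3.11.15.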

Additional observations from a re-analysis of the deposited data

Results flagged for a closer look

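Wells that the quality thresholds removed enter no comparison above, and some of them held more reads of a member, in CPM, than any kept cell of their protocol. MALAT1 stood at 25905 CPM (18278 reads) in well C2 of G&T, 7.37 times the highest kept G&T cell, and at 157579 CPM (71014 reads, 15.8% of the reads on genes) in well B2 of NEB, 3.56 times the highest kept NEB cell. NEAT1 stood at 8311 CPM (5864 reads) in the same G&T well, 15.2 times the highest kept cell. Well C2 of G&T was removed for 33.7% mitochondrial reads and well B2 of NEB for 28.4% ERCC reads.

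Takara well F1 had 108 NEAT1 reads, 13517 CPM, and Takara well C2 had 52 KCNQ1OT1 reads, 3393 CPM. These wells held only 7990 and 15325 reads on genes, beside 96.7% and 91.3% ERCC reads, so their CPM rest on few reads.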

How the results depend on the processing

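No paired analysis was possible because no test was made between protocols and wells of different protocols share only a name. Of the main values recomputed under alternatives, 77 stayed within the spread between cells or within 1.5 times for counts, 23 moved further and 2 values past 2-fold changed direction. Values within 2-fold also changed sign: NEAT1 for NEB over G&T, given below, and MALAT1 for G&T over Takara, from 0.03 to -0.03 with TMM, to -0.96 per ERCC read and to -0.06 without Takara cell B2. Scaled to ERCC reads, the log2 ratio of MALAT1 was 0.55 for NEB over G&T and reversed to -0.41 for NEB over Takara, and that of NEAT1 was -2.32 for NEB over G&T, reversed to -1.03 for NEB over Takara and was 1.28 for G&T over Takara. With all deposited wells, NEAT1 rose to 3.80 for G&T over Takara and went to -1.37 for NEB over G&T, from 0.44, through well C2 of G&T. Leaving out 1 cell at a time kept MALAT1 between 3.20 and 3.40 for NEB over G&T and between 3.24 and 3.49 for NEB over Takara, and NEAT1 between 0.12 and 0.76, 2.36 and 2.83, and 1.94 and 2.34 in the 3 pairs (NEB over G&T, NEB over Takara, G&T over Takara). The log2 ratios of NORAD and OIP5-AS1 for NEB over Takara, 0.13 and 0.03, went to -0.11 without NEB cell H2 and to -0.21 without NEB cell E2.

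At 50 CPM as the minimum level, genes at least 2-fold higher and lower numbered 1329 and 1304 for NEB against G&T (main 2095 and 3608), 1368 and 1754 for NEB against Takara (2294 and 3609), and 684 and 1118 for G&T against Takara (1718 and 1850). At 4-fold they were 793 and 2354, 1000 and 2496, and 392 and 250. With no minimum, 7204 were lower in NEB than in G&T, 5912 lower than in Takara, and 3766 higher in G&T than in Takara. The lncRNA share was 1.02% for G&T, 1.02% for NEB and 0.721% for Takara without MALAT1, and 1.57% for G&T and 3.40% for Takara with all wells, where wells C2 and F1 of Takara held few reads.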

Other observations

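Of 7 lncRNA genes described in breast cancer, 4 could be compared in each pair. DSCAM-AS1, an oestrogen receptor-driven lncRNA, had 103 CPM in G&T, 336 in NEB and 88.4 in Takara, with reads in all 33 cells, and LINC01016 had 27.8, 49.7 and 21.2 CPM in 7, 5 and 5 cells. GATA3-AS1, which lies beside the luminal transcription factor gene GATA3, went the other way, at 59.5, 0.376 and 27.1 CPM, with reads in 2 NEB cells, and HOTAIR had 11.9, 3.39 and 10.2 CPM. Between NEB and G&T 1 of the 4 was at least 2-fold higher in NEB and 2 were lower (median log2 ratio -0.37), between NEB and Takara 2 were higher and 2 lower (-0.08), and between G&T and Takara 1 was higher in G&T and none lower (0.30). Over all genes tested, 23.0% were higher and 39.6% lower in the first pair (median -0.38), 25.6% and 40.3% in the second (-0.38), and 19% and 20.4% in the last (-0.09). DSCAM-AS1 has 41.2% GC and GATA3-AS1 58.8%.

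Among lncRNA genes with at least 10 CPM and reads in at least 6 kept cells in the higher protocol, those with the largest ratios were, for NEB over G&T, ENSG00000260912 (1.05, 182 and 4.18 CPM in G&T, NEB and Takara) and ENSG00000259865 (2.32, 151 and 4.69 CPM), and for NEB over Takara, ENSG00000276334 (5.26, 93.4 and 0.597 CPM) and again ENSG00000260912. Those with the largest ratio of G&T over NEB were GATA3-AS1 and SNHG25 (58.8, 0.627 and 10.1 CPM), and of Takara over NEB MRPL20-AS1 (12.1, 0 and 40.5 CPM) and KDM7A-DT (16.8, 0 and 34.9 CPM). The 3 genes highest in NEB had 27.8% to 36.7% GC and the 4 lowest in NEB 50.5% to 61.1%. SNHG5 and ZSCAN16-AS1, both at least 2-fold lower in NEB than in G&T, have 40.5% and 38.2% GC. The part of GC content in the ratios of lncRNA genes was not tested. Between G&T and Takara, KLC1-AS1 (15.8, 0 and 0.256 CPM) and ZSCAN16-AS1 (15.7, 3.26 and 0.256 CPM) led in G&T, and TFIP11-DT (0, 32.4 and 13.6 CPM) and NKILA (1.37, 0 and 15.5 CPM) in Takara. Antisense and divergent genes among these cannot be separated from their partners without the strand setting.

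Of 10 noncoding RNAs without a poly(A) tail, 9 were matched in the tables and none reached 10 CPM: TERC had 1 NEB cell with a read, at 0.125 CPM pooled, and RN7SL1, RN7SL2, RN7SL3, RMRP, RPPH1, SCARNA2, SCARNA10 and VTRNA1-1 were listed at 0 in every kept cell. MALAT1, which also ends without an added tail, was read in all 33. Reads that mapped to several places, or were ambiguous between genes, are not counted on a gene. The values of 0 thus do not show that these RNAs were not captured.

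The rho of OIP5-AS1 with the mitochondrial share was -0.76 among NEB cells, -0.48 in G&T and -0.39 in Takara (n = 11 each), and the 2 NEB cells without a read of it were B1 and C2. NEB cell B1 also had no NEAT1 read, at 41451 CPM of MALAT1, and NEB cell C2 had the highest NEAT1 level of all kept cells. Low NEB values of 1 member thus did not mark cells that were low in all members.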
